A study of Homo sapiens with 9 samples.

Results

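γH2AX, the histone variant H2AX phosphorylated in chromatin around sites of DNA damage, was followed over 6 gene bodies in K562 cells: USP24, LARP1, PFKP, ITPR1, PDCD6IP and MBOAT2. The genes were chosen from the data, as the genes lying at the 100 kb bins whose γH2AX coverage was raised most by PMA in wild-type cells or was lowest in knockout PMA cells against wild-type PMA cells. Their bodies together spanned 899.605 kb, 0.0296% of the chromosomes, and 733 of the 234983 regions called in the series overlapped them. USP24 lay at the bin ranked 1 of 9552 for the PMA difference in wild-type cells, LARP1 at rank 2 and PFKP at rank 5. ITPR1 and PDCD6IP lay at the bins ranked 1 and 2 for the knockout deficit under PMA, and MBOAT2 at a bin ranked 28 in the first list and 30 in the second. The 2 differences that chose the genes are therefore given below as a description, with no test.

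K562 is a cell line long established from human myelogenous leukaemia. Wild-type cells (WT) were compared with FANCL knockout cells (KO), which lack a ubiquitin ligase needed to repair DNA crosslinks, and all were grown in the same medium and serum. They received a mock treatment or 5 nM PMA, a phorbol ester that pushes K562 cells to differentiate, for 72 h. Each of the 4 groups (mock or PMA in either genotype) had 2 γH2AX ChIP-seq libraries, called libraries 1 and 2 here after their labels. A single input library, from WT mock cells, served for all 8. Whether the knockout was 1 clone or a pool is not given in the sources used here, and the region lists do not measure FANCL, so the genotype rests on the labels. The labels do not say that libraries 1 and 2 came from separate cultures, so every p-value reflects the spread of these libraries alone, and that spread may be technical.

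Sequencing depth ran from 15.6 to 27.2 M tags. The authors called regions in each library on its own, at a tag threshold that fell with depth, from 7.69 to 5.89 tags per 10 M in a window of 500 bp. The measure compared was covered length, the base pairs that fell within called regions. On average (n = 2) it took up 0.29% of the chromosomes for WT mock and 0.92% for WT PMA, against 0.57% for KO mock and 1.27% for KO PMA. A region list from a bulk sample cannot tell a mark in fewer cells from a weaker mark in each cell.

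Kinases of the DNA damage response such as ATM and ATR phosphorylate H2AX soon after a DNA break, and the mark then spreads along the flanking chromatin far beyond the break itself. Breaks and the mark also arise where replication forks stall or meet transcription, and long gene bodies are known places for this. The Fanconi anaemia core complex, in which FANCL is the catalytic subunit, attaches ubiquitin to FANCD2 and FANCI, and these act at stalled forks and crosslinks. The 6 genes belong to no common pathway. USP24 encodes a deubiquitinase, LARP1 an RNA-binding protein that controls translation of ribosomal protein mRNAs, and PFKP the platelet-type phosphofructokinase of glycolysis. ITPR1 encodes a receptor for inositol trisphosphate that releases calcium from the endoplasmic reticulum. PDCD6IP (also called ALIX) encodes an adaptor of the ESCRT membrane-scission machinery, and MBOAT2 an acyltransferase that remodels membrane phospholipids.

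In WT PMA cells the mark lay along the bodies of these genes, with little at their starts. Of the 6 genes, 5 had a promoter in the RefSeq table of build GRCh38.p14, all but USP24. The files use hg19, so the promoter coordinates below belong to another build than the regions. The promoters of MBOAT2 and ITPR1 (the 250 bases before the start of transcription) are shown as 1 start with no covered base in WT PMA, like that of PFKP, and the 1 start covered in both libraries. Within 2 kb either side of the MBOAT2 start, no base was covered in either WT PMA library. Within the same window at ITPR1, 806 bp were covered in WT PMA 1 and 733 bp in WT PMA 2. The capitals mark every CG dinucleotide, which reads the same on both strands.
MBOAT2 (chr2:9003685-9003934, minus strand, GRCh38.p14): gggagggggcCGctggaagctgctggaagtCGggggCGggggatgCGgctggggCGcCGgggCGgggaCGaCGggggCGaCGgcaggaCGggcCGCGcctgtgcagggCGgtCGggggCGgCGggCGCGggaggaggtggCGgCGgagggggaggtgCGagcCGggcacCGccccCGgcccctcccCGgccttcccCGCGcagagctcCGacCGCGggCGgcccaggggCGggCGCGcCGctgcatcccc
ITPR1 (chr3:4493098-4493347, plus strand, GRCh38.p14): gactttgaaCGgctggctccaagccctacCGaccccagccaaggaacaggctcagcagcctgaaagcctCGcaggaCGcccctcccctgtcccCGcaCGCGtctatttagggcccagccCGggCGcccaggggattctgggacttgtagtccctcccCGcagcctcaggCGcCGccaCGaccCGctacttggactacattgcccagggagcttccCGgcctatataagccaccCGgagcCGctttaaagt

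The MBOAT2 promoter held 37 CG dinucleotides and was 84% G or C, and 96.0% of the 35116 promoters in the table held fewer. The ITPR1 promoter held 17 and was 64.8% G or C, with 61.0% of promoters holding fewer. The median promoter held 11, and 93.9% of all promoters held at least 1. At the remaining starts, taken as the gene start in the rule although the table lists several for LARP1 and PFKP, LARP1 had 0 and 634 bp covered within 2 kb in WT PMA 1 and 2, PFKP 0 and 0 bp, and PDCD6IP 608 and 0 bp. Neither MBOAT2 nor PFKP therefore had a called base near its start in either WT PMA library, and ITPR1 was the one gene of the 5 with a covered start in both. Within 2 kb of the gene end, WT PMA 1 and 2 covered 1000 and 1830 bp in LARP1, 1227 and 1694 bp in PFKP, and 2268 and 1712 bp in PDCD6IP. The ends of ITPR1 (1044 and 1033 bp) and MBOAT2 (0 and 0 bp) were more like their starts.

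USP24 (chr1:55532032-55680762, hg19, 148.73 kb) came closest to a mark present in WT PMA alone. Its covered length was 1.17 and 1 kb in WT mock 1 and 2, 49.6 and 34.1 kb in WT PMA, 0 and 0 kb in KO mock, and 0 and 0.50 kb in KO PMA. In WT PMA this was 33.3% and 22.9% of the gene, in 46 and 36 regions, of which the longest measured 4725 bp (chr1:55629239-55633964). The KO libraries together held 1 region, of 500 bp (chr1:55624982-55625482), in KO PMA 2, at 30.2-fold over input in the deposited list. That fold came from an input with fewer than 1 tag per kb there, while the 82 WT PMA regions had a median fold of 4.11. In the 67.968 kb of the gene that lay outside the bin that chose it, WT PMA 1 and 2 covered 22.4 and 14.9 kb and the KO libraries none. That stretch lay in the bin ranked 4 for the knockout deficit under PMA, so it is not independent of the choice.

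MBOAT2 (chr2:8992820-9143856, minus strand, 151.036 kb) also had its mark almost entirely in WT PMA. Covered length was 0.50 and 0 kb in WT mock, 22.1 and 16.4 kb in WT PMA, 2 and 1 kb in KO mock, and 2.35 and 1 kb in KO PMA. The WT PMA coverage was the thinnest of the 6 genes as a share of length, 14.7% and 10.8%, and 56% of the 50 regions there were single windows of 500 bp. No library of another group exceeded 2.35 kb.

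ITPR1 (chr3:4535032-4889524, 354.492 kb) is the longest of the 6 genes. It had the most covered length of them in both WT groups, but not in KO mock or KO PMA. Its covered length was 63.8 and 43.6 kb in WT mock, 161.8 and 139.5 kb in WT PMA, 4.63 and 3.27 kb in KO mock, and 11.7 and 8.56 kb in KO PMA. Thus 45.6% and 39.4% of the gene was covered in WT PMA and 18.0% and 12.3% already in WT mock, against at most 3.29% in any KO library. Of all bins of 100 kb, 0.25% were covered to a greater share in WT mock than ITPR1, so its mark was not confined to WT PMA. WT PMA 1 held a single region of 14464 bp in this gene (chr3:4721481-4735945), where the longest region of the whole library measured 18607 bp. Of the length covered in WT mock, 86.0% and 88.0% lay within the regions of both WT PMA libraries combined. Those regions took up more than the 45.6% of the gene covered in WT PMA 1, so a large overlap would arise by position alone.

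PDCD6IP (chr3:33839844-33911199, 71.355 kb) had the highest mean share of its length covered in WT PMA, 45.1%, although ITPR1 was the denser in WT PMA 2. The values were 4.18 and 4.07 kb in WT mock, 36.7 and 27.6 kb in WT PMA, 0.50 and 0 kb in KO mock, and 0.50 and 1.5 kb in KO PMA. In WT PMA 51.5% and 38.6% of the gene was covered, and 0.0296% of the 30361 bins were covered to a greater share. The gene was chosen on a deficit against the same WT PMA libraries, so this place is not independent of the choice. The bin that chose this gene lay mostly beyond it: 88.8 of its 100 kb were downstream, and these held 20.6 of the 26.1 kb covered in the bin in WT PMA 1 and 19.0 of 22.5 kb in WT PMA 2. The 60.156 kb of the gene outside that bin had 31.3 and 24.0 kb covered in WT PMA, 3.51 and 3.38 kb in WT mock, and at most 1.5 kb in a KO library. It lay in the bin ranked 11 for the same deficit.

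LARP1 (chr5:154092462-154197167, 104.705 kb) departed from the pattern, since PMA-treated cells of both genotypes carried the mark. No base was covered in either WT mock library, 21.7 and 21.5 kb were covered in WT PMA, 2.44 and 1.95 kb in KO mock, and 17.0 and 15.4 kb in KO PMA. The WT PMA and KO PMA values did not overlap, but the mean of KO PMA (16.2 ± 1.11 kb, SD, n = 2) was close to that of WT PMA (21.6 ± 0.17 kb). Regions numbered 22 and 22 in WT PMA and 20 and 16 in KO PMA. Of the length covered in KO PMA 1 and 2, 63.0% and 60.2% fell inside the regions of both WT PMA libraries combined. WT PMA 1 and 2 covered 20.7% and 20.5% of the gene, and more when combined, so part of this overlap would arise by position alone.

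PFKP (chr10:3109712-3178999, 69.287 kb) was marked in every group except WT mock. Both WT mock libraries had no region in the gene or in its flanks. Covered length was 12.5 and 13.5 kb in WT PMA, 6.44 and 3.29 kb in KO mock, and 5.47 and 6.17 kb in KO PMA. The KO mock and KO PMA values overlapped, and both lay below WT PMA with regions as called in each library. With 1 tag threshold for all libraries, WT PMA had 2.98 and 4.25 kb and KO mock 5.94 and 2.79 kb, so these groups overlapped. KO PMA then had 1.5 and 2.33 kb. As a share of the gene, WT PMA covered 18.0% and 19.5%, KO mock 9.30% and 4.75%, and KO PMA 7.89% and 8.91%.

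**Figure D1:**
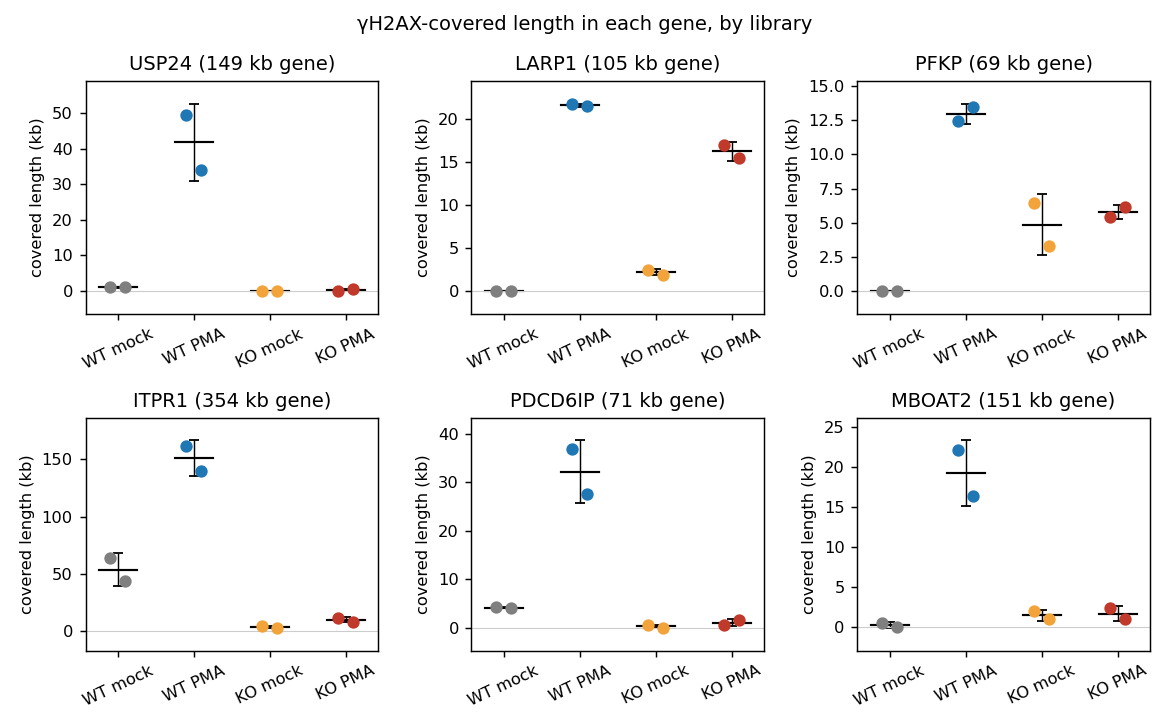
γH2AX-covered length (kb) in each gene body by group, with 1 point per library, horizontal bars for the mean and error bars for the SD (n = 2). With regions as called at each library's own threshold, both WT PMA points lie above all other libraries in each panel. ITPR1 also has 63.8 and 43.6 kb in WT mock, and LARP1 reaches 17.0 and 15.4 kb in KO PMA.

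Taking the 6 genes as 1 stretch, covered length was 69.7 and 48.7 kb in WT mock, 304.4 and 252.5 kb in WT PMA, 16.0 and 9.52 kb in KO mock, and 37.0 and 33.2 kb in KO PMA. Depth was 27.2 and 17.0 M tags in WT PMA 1 and 2, and 15.6 to 18.3 M in the KO libraries. ITPR1 made up more than all the other genes combined in WT mock and WT PMA. Relative to all that a library had covered, the 6 genes took 0.99% ± 0.033 in WT PMA and 0.66% ± 0.091 in WT mock, but 0.092% ± 0.0065 in KO PMA and 0.074% ± 0.027 in KO mock (SD, n = 2). On the log2(covered bp + 1000) scale, the difference of WT PMA from WT mock was 4.34 for USP24, 4.50 for LARP1, 3.8 for PFKP, 1.49 for ITPR1, 2.68 for PDCD6IP and 4.03 for MBOAT2. The median over all 9558 rows was 0.66, and 32.1% of rows were called higher by limma at a Benjamini-Hochberg adjusted p of 0.05. All 6 genes were among them, which follows from their choice and is no test. With each library centred on its median the ITPR1 value was 0.71 and the others ran from 1.90 to 3.72. The difference of KO PMA from WT PMA was −5.10 for USP24, −1.04 for PFKP, −3.78 for ITPR1, −4.08 for PDCD6IP and −2.95 for MBOAT2, against a median of −0.21. Here 22% of rows were called lower, with 5 of the 6 genes, again as a result of their choice. LARP1 had −0.39, and 0.036 with centred libraries. Centring also moved the calls over all rows, from 3068 higher and 221 lower to 1253 and 945 for WT PMA against WT mock, and from 1517 and 2101 to 2118 and 1272 for KO PMA against WT PMA.

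The share of a library's covered length that fell on the genes' own chromosomes moved with genotype too. Chromosome 3, home of ITPR1 and PDCD6IP, held 6.54% to 8.28% of covered length in the WT libraries and 2.16% to 2.50% in the KO libraries. Chromosome 5, with LARP1, held 6.20% to 7.19% in WT, whereas KO mock had 4.46% and 4.28% and KO PMA had 2.48% and 2.51%. Chromosome 10, with PFKP, held 4.44% to 4.96% in WT and 2.14% to 2.80% in KO. Chromosome 1, with USP24, held 13.9% to 16.2% in WT and 10.9% to 11.9% in KO. Chromosome 2, with MBOAT2, held 5.19% to 8.47% in WT and 3.21% to 4.63% in KO. In covered length, chromosome 3 had 0.750 and 0.535 Mb in WT mock against 0.380 and 0.374 Mb in KO mock. Chromosome 5 had more in KO mock (0.767 and 0.741 Mb) than in WT mock (0.619 and 0.508 Mb), and on chromosome 10 the mock groups overlapped (0.481 and 0.414 Mb, 0.452 and 0.363 Mb). All libraries were scored against the WT mock input, so a copy number that differs between the WT and KO cells is not corrected for. Its part in these differences was not tested. In the regions of WT PMA 1 and 2 the input itself had 9.27 and 10.0 tags per kb in ITPR1 and 9.14 and 9.55 in PDCD6IP, against 6.36 and 7.41 over all regions of those libraries (all tags over all length in each case), while the other 4 genes had 5.62 to 7.87.

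Inside the genes the mark came in many short regions, and their places were only partly the same in the 2 libraries of a group. In WT PMA the shared length was 37.1% of library 1 and 54.0% of library 2 in USP24, 30.2% and 27.9% in PFKP, 56.9% and 66.0% in ITPR1, 49.1% and 65.5% in PDCD6IP, and 26.6% and 36.0% in MBOAT2. In LARP1 it was 49.95% and 50.5%. The thinly covered genes PFKP and MBOAT2 thus shared the least and ITPR1 the most. Overlap by position alone also rises with the share of a gene that is covered, so this order is no measure of shared places. In KO PMA, ITPR1 shared 12.2% and 16.6% and LARP1 40.4% and 44.5%. The regions of highest deposited fold were short and differed between libraries. They held 5.89 to 13.6 tags per 10 M where the input had 1 to 4 tags per kb, whereas the longest region of each gene and WT PMA library held 26.5 to 284.7. In USP24 the highest of WT PMA 1 lay at chr1:55643218-55643990 (23.9-fold) and that of WT PMA 2 at chr1:55576643-55577143 (15.3-fold). In ITPR1 they lay at chr3:4633288-4633924 (12.7-fold) and chr3:4548267-4548767 (13.2-fold), and in MBOAT2 at chr2:9105606-9106106 (23.3-fold) and chr2:9011744-9012244 (14.2-fold). LARP1 had chr5:154157263-154157763 (13.7-fold) and chr5:154120826-154121326 (7.12-fold), PFKP chr10:3133514-3134014 (8.21-fold) and chr10:3130489-3130989 (8.76-fold), and PDCD6IP chr3:33880544-33881044 (10.9-fold) and chr3:33901855-33902355 (13.2-fold).

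A few high-fold regions of other groups recurred at 1 place, where the input common to all libraries had 0.93 to 4.60 tags per kb. In ITPR1, the top region by fold of WT mock 2 (chr3:4718835-4719335, 15.9-fold) overlapped that of WT mock 1 (chr3:4719022-4719522, 14.8-fold), and the top region of KO PMA 2 (chr3:4860518-4861018, 16.3-fold) overlapped that of KO PMA 1 (chr3:4860519-4861383, 8.40-fold). In USP24, WT mock 1 and 2 both had a region near chr1:55573770-55574270, at 7.38- and 6.36-fold. In PFKP, KO PMA 2 (chr10:3126338-3126838, 27.9-fold) and KO PMA 1 (chr10:3126003-3126877, 9.67-fold) overlapped as well. In LARP1, 1 region of KO PMA 1 (chr5:154121197-154121697, 15.3-fold) overlapped the top region of WT PMA 2 and the top one of KO mock 2 (chr5:154121037-154121537, 7.74-fold). These regions were 500 to 874 bp long.

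**Figure D2:**
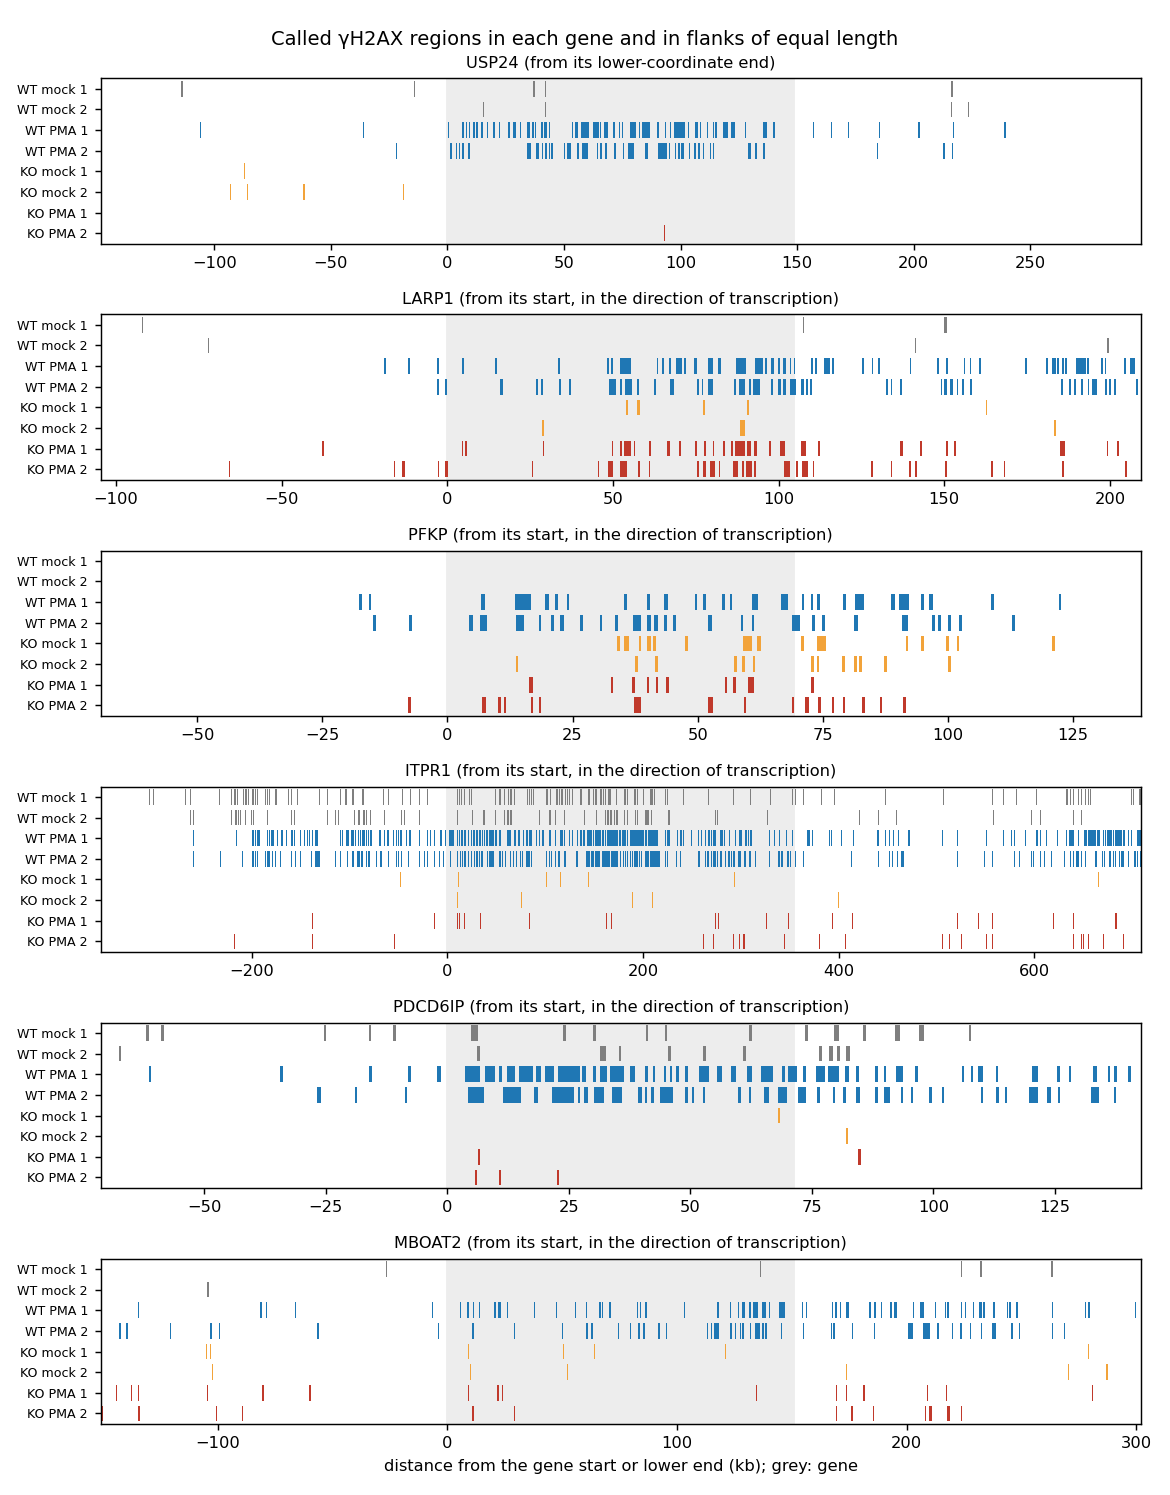
Called γH2AX regions (coloured bars, 1 row per library) in each gene (grey) and in flanks as long as the gene, by distance in kb from the gene start in the direction of transcription, or from the lower-coordinate end for USP24. The 46 and 36 USP24 regions of WT PMA run through the gene while its flanks hold few, ITPR1 has many regions in WT PMA and fewer in WT mock, and LARP1 rows of WT PMA and KO PMA look alike.

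In WT PMA the gene body held more of the mark than both flanks combined at 5 of the 6 genes, and the edge was sharpest at USP24. Except at PDCD6IP, the bin that chose the gene lay mostly within its body, so a high share inside is not independent of the choice. The 2 flanks of USP24, each as long as the gene, had 1 and 0.50 kb covered on the lower side and 3.63 and 1.5 kb on the higher side in WT PMA 1 and 2. Of the covered length in the gene and both flanks together, 93.0% ± 2.12 (SD, n = 2) lay inside USP24. The same share was 63.6% ± 1.43 for PDCD6IP, 58.7% ± 5.87 for PFKP, 56.2% ± 3.08 for ITPR1, 54.6% ± 3.50 for LARP1 and 47.4% ± 1.09 for MBOAT2, with a mean of 62.2% over the 6 genes. MBOAT2 thus had more of the mark outside than inside. When regions under 6-fold over input were dropped, USP24 kept 90.6% inside and the other 5 genes had 30.5% to 49.7%.

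At 4 of the 5 genes whose strand was known, all but ITPR1, the mark in WT PMA ran past the gene end more than before its start. LARP1 had 1.67 and 1.13 kb upstream and 18.2 and 15.0 kb downstream in WT PMA 1 and 2. PFKP had 1 and 1.13 kb against 9.38 and 6.86 kb. PDCD6IP had 2.68 and 1.63 kb against 17.5 and 14.9 kb, and MBOAT2 2.50 and 3.94 kb against 21.3 and 14.8 kb. In these 4 genes the downstream flank was higher in both WT PMA libraries. The downstream flank of PDCD6IP lay wholly inside the bin that chose the gene, and the PFKP bin reached farther downstream than upstream. At PDCD6IP and PFKP the lean is therefore not independent of the choice. ITPR1 was marked on both sides, with 67.4 and 51.2 kb upstream and 70.5 and 48.4 kb downstream, and the order differed between the libraries. By the reference table, a gene follows closely after LARP1 (FAXDC2), PFKP (PITRM1) and MBOAT2 (KIDINS220), so coverage in these 3 downstream flanks can lie in a neighbour. In LARP1 the lean to the downstream side was present in KO PMA as well, with 0.50 and 2.84 kb upstream and 6.69 and 8.13 kb downstream.

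Along the gene body the profile differed from gene to gene. When each gene was cut into 5 equal parts, LARP1 was covered at 5.42% and 3.76% in the first part and at 42.4% and 40.6% in the last in WT PMA 1 and 2. KO PMA had the same slope, from 4.78% and 1.04% to 37.4% and 29.4%. The reference table lists LARP1 promoters from chr5:154682729-154682978 to chr5:154756904-154757153 (GRCh38.p14), so the first parts may lie before a start in use. Which start these cells used was not measured. MBOAT2 was also highest in its last part, at 31.3% and 23.1% against 17.8% and 4.51% in its first. ITPR1 was highest in the third part, at 81.2% and 69.0% in WT PMA and 34.4% and 23.05% in WT mock, so its profile had the same peak with and without PMA. PDCD6IP was highest in the second part, with 77.2% and 51.6%. USP24, shown in coordinate order, was covered at 48.1% and 26.5% in the third part and 41.1% and 35.8% in the fourth, and less at both ends (25.3% and 11.2%, 19.6% and 9.35%). PFKP had its highest mean in the second part (33.9% and 26.1%), but the third held 7.22% in one library and 25.6% in the other, so no firm profile can be read. Cutting the genes into 10 parts put the highest part at the same place in all 6.

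**Figure D3:**
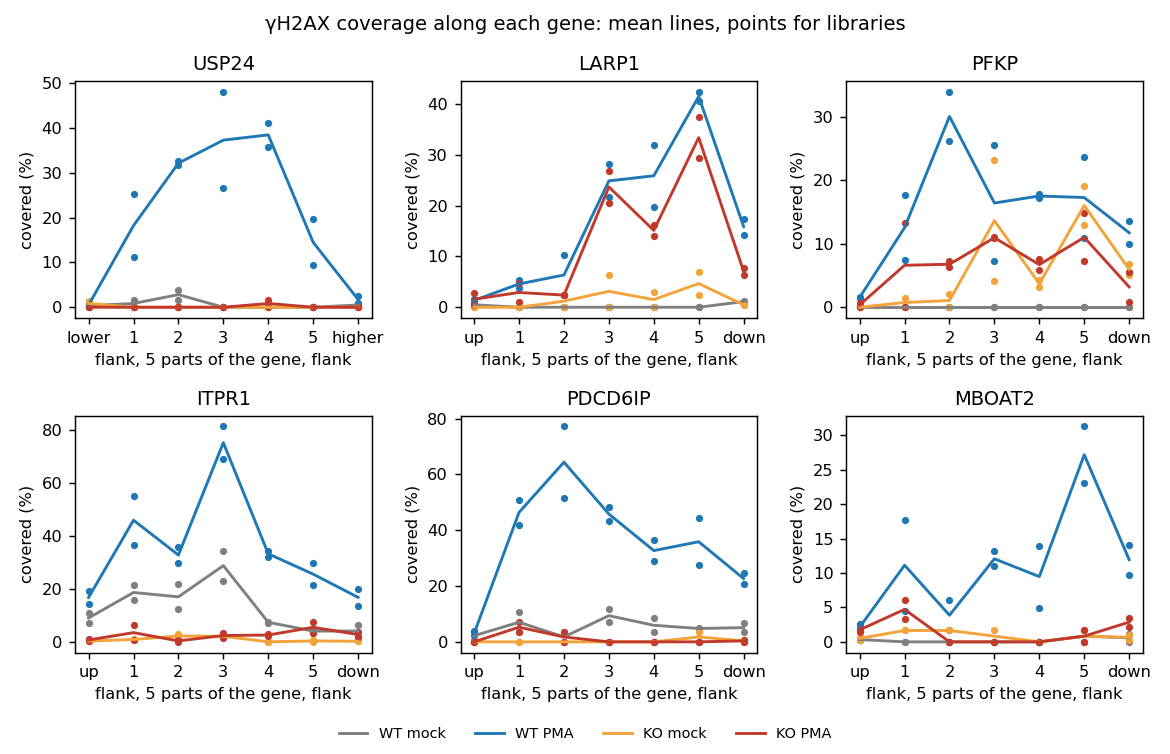
Percent of bases covered in the flanks and in 5 equal parts of each gene, with lines for group means and points for the 2 libraries (up and down are the flanks before and after the gene, lower and higher those of USP24). LARP1 climbs to 42.4% and 40.6% at its last part in WT PMA and to 37.4% and 29.4% in KO PMA, ITPR1 peaks in part 3, and USP24 drops outside the gene.

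Without PMA, covered length in KO cells differed from that in WT cells at 4 of the 6 genes. In KO mock against WT mock, ITPR1 and PDCD6IP fell and LARP1 and PFKP rose. LARP1 and PFKP had been chosen on a difference from the same WT mock libraries, which favours low WT mock values. ITPR1 fell by 3.46 on the log2(covered bp + 1000) scale (SE 0.28, adjusted p = 0.00144 by limma), from 63.8 and 43.6 kb to 4.63 and 3.27 kb. PDCD6IP fell by 2.07 (SE 0.34, adjusted p = 0.0133), from 4.18 and 4.07 kb to 0.50 and 0 kb. LARP1 was higher by 1.67 (SE 0.15, adjusted p = 0.00221) and PFKP by 2.50 (SE 0.28, adjusted p = 0.00426). Both had no covered base in WT mock, so the size of these differences depends on the added constant of 1000 bp. USP24 had a difference of −1.06 (SE 0.29, adjusted p = 0.0571) and MBOAT2 one of 1 (SE 0.39, adjusted p = 0.149), on at most 2 kb in any mock library. So 2 of the 6 genes were higher, where 17.3% of all 9558 rows were, and 2 were lower, where 3.63% were. The count of higher genes holds only LARP1 and PFKP, so it is not independent of the choice. The median difference over all rows was 0.29. With each library centred on its median, 1190 rows were higher and 570 lower, in place of 1649 and 347.

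For ITPR1 and PDCD6IP this comparison shares no library with the one that chose them. USP24, LARP1, PFKP and MBOAT2 were chosen on a difference from the same WT mock libraries, so their values here are not independent of the choice. The PDCD6IP call was lost without WT mock 1, WT mock 2 or KO mock 2 (adjusted p = 0.0709, 0.0609 and 0.0720) and with 1 tag threshold for all libraries, as was the LARP1 call with that threshold (0.103). Neither LARP1 nor PFKP passed with regions of at least 1000 bp (adjusted p = 0.592 and 0.585) or with equal numbers of regions per library, and no gene passed with only the regions at 6-fold or more (0 of 6 by limma, 3 at an unadjusted p of 0.05).

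PMA in KO cells raised the mark at LARP1 and, less firmly, at ITPR1. LARP1 went from 2.44 and 1.95 kb in KO mock to 17.0 and 15.4 kb in KO PMA, a log2 difference of 2.43 (SE 0.15, adjusted p = 0.00107 by limma). ITPR1 went from 4.63 and 3.27 kb to 11.7 and 8.56 kb, a difference of 1.17 (SE 0.28, adjusted p = 0.0432). The other 4 genes did not pass: USP24 had 0.29 (SE 0.29, adjusted p = 0.563), PFKP 0.27 (SE 0.28, adjusted p = 0.594), PDCD6IP 0.66 (SE 0.34, adjusted p = 0.272) and MBOAT2 0.08 (SE 0.39, adjusted p = 1). That is 2 of 6 genes higher, where 13.1% of all rows were, and none lower, where 5.34% were. The median over all rows was 0.21. The difference between the PMA responses of the 2 genotypes was not tested, since WT PMA chose the genes.

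LARP1 and PFKP came from a comparison that shares no library with this one. ITPR1, PDCD6IP, MBOAT2 and USP24 (rank 3 for the knockout deficit) share the KO PMA libraries with a difference that chose or ranked them. The ITPR1 call was lost without any 1 of WT PMA 1, WT PMA 2, KO mock 1, KO mock 2, KO PMA 1 or KO PMA 2 (adjusted p from 0.0624 to 0.175), with 1 tag threshold (0.179), with a constant of 10000 bp (0.116), with equal numbers of regions (1) and with the regions at 6-fold or more (0.671), while the LARP1 call was lost only with the regions at 6-fold or more (0.79, adjusted p = 0.710), of the alternatives run.

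**Figure D4:**
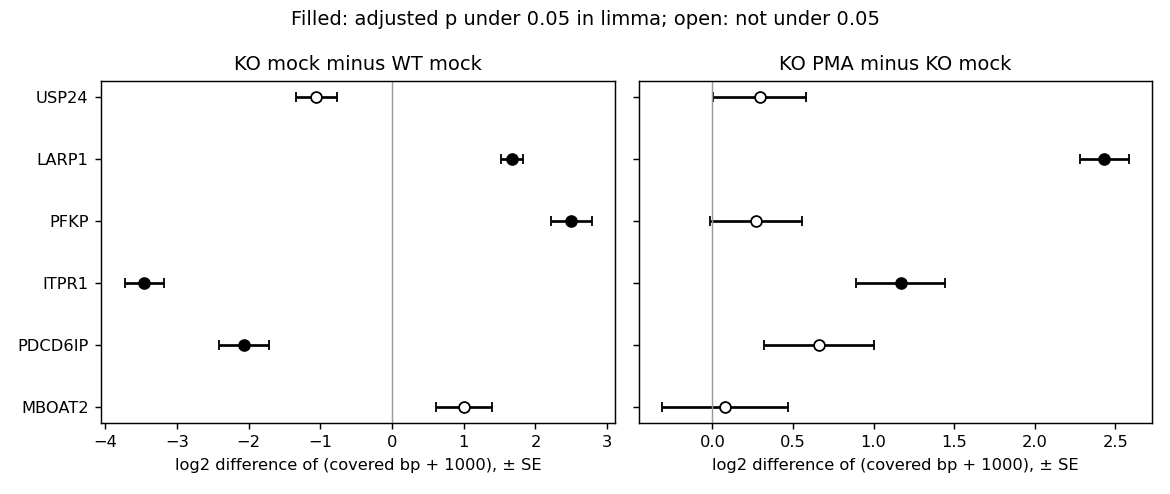
Fitted log2 differences of (covered bp + 1000) with SE for the 6 genes in KO mock minus WT mock and KO PMA minus KO mock, filled where the adjusted p of limma was under 0.05. ITPR1 (−3.46) and PDCD6IP (−2.07) lie below 0 and LARP1 (1.67) and PFKP (2.50) above it in the mock comparison, and LARP1 (2.43) is the farthest from 0 in the PMA comparison.

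Elsewhere in the genome, some bins of 100 kb had a pattern over the 8 libraries near the mean of the 6 genes. The nearest, by Euclidean distance between log2 values, was chr1:230200001-230300000 (distance 0.95), with 2.22 and 1.22 kb covered in WT mock, 20.0 and 17.9 kb in WT PMA, 2 and 2 kb in KO mock, and 2.75 and 3.45 kb in KO PMA. Next came chr5:43500001-43600000 (1.01), chr9:123200001-123300000 (1.06), chr3:37000001-37100000 (1.08) and chr6:157200001-157300000 (1.12). In these 4 bins WT PMA covered 16.6 to 32.1 kb and no other group more than 4.34 kb. The 6 genes themselves lay farther from their own mean, from 2.48 for MBOAT2 to 3.97 for ITPR1, so 1 mean pattern describes none of them closely. The bins were picked as the nearest, so their smaller distances follow from the search.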

How the data were processed

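Regions of γH2AX ChIP-seq were analysed in 8 libraries (2 for each genotype and treatment), grouped by their titles. The submitters' processing notes name BWA, HOMER and CASAVA 1.4, with build hg19. Regions were called by the authors in each library, per the file headers, against the WT mock input, at least 2-fold over it, with tags limited to 1 per bp. The deposited signal is a region's tag number per 10 M tags of the library, and the deposited control signal its tags in the input. The deposited fold (a ratio to input) and the deposited score are HOMER's own, and the score was not used in any result.

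Covered bp were computed after merging, in bins of 100 kb and in the 6 gene bodies. The 9558 rows covered in at least 2 libraries entered 1 limma 3.58.1 fit (R 4.3.3, mean-variance trend, 4 groups) on log2(covered bp + 1000), two-sided, with Benjamini-Hochberg adjustment over all rows. The fit was tested on simulated data. Tables were made with Python 3.11.15, pandas 2.3.3 and numpy 2.4.6. The members and lists were chosen with earlier results of these data known. Named were the 6 genes, the region of highest fold in each WT PMA library and up to 3 in each other group (those not described are summarised by their counts), the longest regions, and the 5 bins nearest the mean pattern, at most 1 per 10 Mb and none within 1 Mb of a member. Gene relatives were not analysed here, because the reference is of another build. The promoters are from RefSeq, GRCh38.p14, and gave the strand. Alternatives were the added constant, the row filter, region fold and length, 1 tag threshold, equal region numbers, centring, tags, bin size, a replicate block and leaving out each library.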

Additional observations from a re-analysis of the deposited data

Results flagged for a closer look

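At 3 genes the KO libraries lay above the WT libraries without PMA and below them with PMA. The mean difference in covered length, KO minus WT, was 2.20 kb under mock and −5.37 kb under PMA for LARP1. It was 4.87 kb and −7.16 kb for PFKP, and 1.25 kb and −17.6 kb for MBOAT2. With regions as called, every KO mock library was above every WT mock library in each of these genes, and every KO PMA library was below every WT PMA library. At LARP1 the order under PMA was lost with 1 tag threshold for all libraries. The difference between the 2 treatments was not tested, and the genes were chosen for high values in WT PMA, which sets the direction under PMA. The choice on WT PMA against WT mock also favours low values in WT mock, so the direction without PMA is not independent of it either. MBOAT2 without PMA rests on 2 and 1 kb against 0.50 and 0 kb.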

How the results depend on the processing

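Among the 6 genes, counts past the threshold changed most with the strength of the regions. With only regions at 6-fold or more, limma called 3 of 6 in WT PMA against WT mock (6 as reported), 0 in KO PMA against KO mock (2 as reported, and 0 also at an unadjusted p of 0.05), 0 in KO mock against WT mock (4 as reported, 3 unadjusted) and 3 in KO PMA against WT PMA (5 as reported). Calls over all rows fell as well. In the same order, limma called 1141, 369, 250 and 1239 of 7260 rows in either direction. As reported, it called 3289, 1765, 1996 and 3618 of 9558. The lower counts are therefore not particular to these genes. KO PMA against KO mock gave 1 with a constant of 10000 bp, with 1 tag threshold and with equal numbers of regions, and 1 to 2 when a library was left out. KO mock against WT mock gave 2 with regions of at least 1000 bp and with 1 tag threshold, and 3 to 4 with a library left out. KO PMA against WT PMA gave 3 with a constant of 100 bp and 6 with one of 10000 bp, and WT PMA against WT mock gave 4 with equal numbers of regions and 5 with centring. The genes were chosen on these last 2 comparisons, so their counts say nothing of stability. Calls over all rows moved with the settings too. For KO PMA against KO mock they were 2005 of 9558 with a constant of 10000 bp. They were 1626 of 7428 with 1 tag threshold and 565 of 6113 with equal numbers of regions. For KO mock against WT mock they were 615 of 3191 with regions of at least 1000 bp and 1879 of 7428 with 1 tag threshold. Leaving out a library gave 5 to 6 in WT PMA against WT mock and 4 to 5 in KO PMA against WT PMA. The mean share inside the genes, 62.2%, was 49.4% with regions of at least 6-fold and 72.1% with those of at least 1000 bp. LARP1 in KO PMA against WT PMA turned from −0.39 to 0.036 with centred libraries. USP24 passed in KO mock against WT mock with a constant of 100 bp, equal numbers, centring and tags (adjusted p = 0.0449, 0.0488, 0.0418 and 0.0453). Where no value above shows it, the cause was not tested. For single genes, 407 alternative values kept their reading, 90 moved, 25 lost the threshold, 5 gained it and 1 reversed. Of those kept, 86 were in WT PMA against WT mock and 93 in KO PMA against WT PMA, where the reversal also lay. The genes were chosen on these comparisons, so such values say nothing of stability. KO PMA against KO mock kept 115 and lost 11. KO mock against WT mock kept 107, lost 14 and gained 5.

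Same-numbered libraries deviated together weakly in WT mock and WT PMA (correlation of 0.16 over 9558 rows). The other pairs of groups had correlations of −0.059 to 0.031. The numbers are thus not shown to pair the libraries, and a weak pairing in WT is not excluded. With the replicate block, 6, 2, 5 and 4 of the 6 genes passed in WT PMA against WT mock, KO PMA against KO mock, KO mock against WT mock (MBOAT2 added, adjusted p = 0.0285) and KO PMA against WT PMA. In the same order, 3127, 1528, 1762 and 3427 of all 9558 rows passed. The genes were chosen on WT PMA against WT mock and KO PMA against WT PMA, so their counts there are no test. A deeper library has a lower threshold, and a gene with 0 kb covered may still carry tags below it. Whether depth limits short regions more than long ones was not tested.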
